A study of Rattus norvegicus with 4 samples.

Results

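Angptl4 and 8 other genes of lipid uptake, storage and efflux were examined in glomeruli of 4 male Wistar rats. Members were chosen by symbol: Angptl4, Lpl, Vldlr, Gpihbp1, Plin2, Pdk4, Ucp2, Abca1 and Scarb1. Of these 9 genes, 8 were among the 13261 genes used, and Gpihbp1 was not analysed here. Angptl4 was included partly because its values were uneven between these animals, so its spread is given below as a description, with no p-value. The closing screen for single rats set apart includes Angptl4, also as a description. The other members were chosen for their function, with earlier results of these data known.

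All 4 rats form a single group, ADR, given Adriamycin (doxorubicin, an anthracycline that injures podocytes) by intravenous injection. Their weight is listed as about 150 to 175 g, and kidneys were taken on day 11 or 21, without a statement of which day applied to which rat. No untreated rats were analysed here, so no value below carries a direction of response to the drug. The samples are listed separately, but nothing in the labels says that each came from its own animal; p-values measure the spread between these samples, which are called rats or replicates in what follows.

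Angptl4 encodes a secreted inhibitor of lipoprotein lipase. Lipoprotein lipase (Lpl) frees fatty acids from circulating triglyceride-rich lipoproteins at the capillary wall, where GPIHBP1 anchors it, and cells take up lipoprotein remnants through receptors such as VLDLR. Fatty acids are then stored in lipid droplets or burned in mitochondria, and cholesterol leaves cells through transporters such as ABCA1. In nephrotic syndrome, Angptl4 has been linked both to proteinuria, through podocytes, and to raised plasma triglycerides, through inhibition of the lipase. Angptl4, Plin2, Pdk4 and Ucp2 are also known targets of peroxisome proliferator-activated receptors (PPARs), the subject of the wider study.

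Promoter sequences were available for 6 of the 8 measured members. Windows of 300 bases, from 250 before the annotated start to 50 after it, were taken from RefSeq on build GRCr8, whereas Rnor_6.0 is the build named for the expression values. They are shown for the members with the widest spread between rats (Angptl4 and Pdk4) and the narrowest range (Vldlr and Abca1), with the letters of the searched motifs in capitals. The Angptl4 window is chr7:15258632-15258931 on the minus strand, that of Pdk4 chr4:34568280-34568579 on the minus strand, that of Vldlr chr1:234240436-234240735 on the plus strand and that of Abca1 chr5:72596424-72596723 on the minus strand.
Angptl4: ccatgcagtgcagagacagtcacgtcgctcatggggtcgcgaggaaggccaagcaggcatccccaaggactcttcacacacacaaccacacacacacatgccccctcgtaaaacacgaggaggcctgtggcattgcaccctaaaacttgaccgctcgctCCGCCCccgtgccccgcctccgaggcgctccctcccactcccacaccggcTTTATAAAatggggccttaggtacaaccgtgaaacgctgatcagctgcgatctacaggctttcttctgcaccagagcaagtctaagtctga
Pdk4: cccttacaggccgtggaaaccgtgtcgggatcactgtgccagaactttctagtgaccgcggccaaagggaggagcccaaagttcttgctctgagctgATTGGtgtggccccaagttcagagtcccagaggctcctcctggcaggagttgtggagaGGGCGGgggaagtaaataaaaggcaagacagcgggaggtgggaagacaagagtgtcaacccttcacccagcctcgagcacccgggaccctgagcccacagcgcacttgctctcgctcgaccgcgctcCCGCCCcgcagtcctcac
Vldlr: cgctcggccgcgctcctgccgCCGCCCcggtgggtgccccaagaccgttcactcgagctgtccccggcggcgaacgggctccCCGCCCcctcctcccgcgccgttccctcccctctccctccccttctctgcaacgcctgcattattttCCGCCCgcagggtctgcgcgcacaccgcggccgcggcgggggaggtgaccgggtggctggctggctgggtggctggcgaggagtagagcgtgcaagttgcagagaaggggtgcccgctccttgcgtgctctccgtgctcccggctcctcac
Abca1: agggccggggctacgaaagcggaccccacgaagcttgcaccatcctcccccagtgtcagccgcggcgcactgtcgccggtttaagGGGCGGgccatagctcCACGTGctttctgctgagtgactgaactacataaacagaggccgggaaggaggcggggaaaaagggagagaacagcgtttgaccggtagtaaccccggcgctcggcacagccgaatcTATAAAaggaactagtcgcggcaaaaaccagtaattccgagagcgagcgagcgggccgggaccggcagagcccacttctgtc

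Motifs searched on both strands were the TATA box (TATAAA), the CCAAT box (CCAAT), the GC box (GGGCGG), the E-box (CACGTG), the nuclear receptor half-site (AGGTCA) and the paired half-sites with 1 base between them, to which PPARs bind (AGGTCANAGGTCA, which contains the half-site). The Angptl4 window held TATAAA on the plus strand 39 bases before the start, an overlapping match on the other strand at 41 bases before it, and a GC box at 91 bases. Abca1 held TATAAA at 32 bases before the start, an E-box at 149 bases and a GC box at 165 bases. Pdk4 held 2 GC boxes and a CCAAT box, and Vldlr held 3 GC boxes and no TATAAA. Over the 27457 RefSeq promoters, TATAAA was found in 14.3%, the GC box in 34.9%, CCAAT in 37.7% and the E-box in 6.65%. The half-site and the paired half-sites were found in 15.7% and 0.0583% of promoters and in none of the 6 members; this says only that these letters are not in these windows.

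Values are given in CPM (reads scaled to the same total in each sample) or in log2 CPM as deposited. CPM is not corrected for transcript length, so members are compared between rats and not with each other; a list's median level is set beside that of all genes only to describe its reads. The 4 libraries carried 13566962 to 16207027 reads in the genes used, and the median gene had 439 reads. Each of the 8 members reached 1 log2 CPM or more in every rat. Replicate 2 stood apart in 2 ways. Its 13 mitochondrial protein genes took 12.5% of reads, against 7.46% to 9.34% in the others. Also, 18 of the 19 podocyte markers had their lowest value there, against 31.5% of all genes. In replicate 1, 17 of the 19 podocyte markers had their highest value, against 27.7% of all genes. The podocyte markers summed to 10716 CPM in replicate 2 and to between 13533 and 17954 CPM in the others. Glomerular markers were present in every library, but 12 of 12 proximal tubule markers were measured too, at summed levels of 3301 to 6964 CPM. In whole glomerular preparations, fewer cells of a type and less RNA per cell cannot be told apart.

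Angptl4 (ENSRNOG00000007545), the lipase inhibitor, had 84, 367, 113 and 148 reads in replicates 1 to 4. These correspond to 6.19, 22.6, 7.36 and 9.71 CPM, with a mean of 11.5 ± 7.59 CPM (SD, n = 4). Replicate 2 was high and the other 3 were low. The exact Poisson 95% interval of replicate 2, 20.4 to 25.1 CPM, lay above those of replicates 1, 3 and 4, which ran from 4.94 to 7.67, from 6.07 to 8.85 and from 8.21 to 11.4 CPM. Neighbouring intervals among these 3 rats overlapped, whereas those of replicates 1 and 4 did not; the intervals cover counting error only. The highest value was 3.66 times the lowest in CPM. Without replicate 2 this ratio was 1.56 on the deposited scale, against 3.64 with it, so the spread rests mainly on that rat. The SD of log2 CPM, 0.83, exceeded that of 99.0% of all genes and of 195 of the 200 genes nearest in mean level, whose median SD was 0.22.

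Lpl (ENSRNOG00000012181), the lipase that Angptl4 inhibits, had 221, 178, 255 and 211 CPM in replicates 1 to 4, a mean of 216 ± 31.7 (SD, n = 4). Its lowest value fell in replicate 2, where Angptl4 was highest and where 31.5% of all genes were lowest. Its highest fell in replicate 3. The read ratio of Angptl4 to Lpl was 0.0280, 0.127, 0.0289 and 0.0460 in replicates 1 to 4. Replicates 1 and 3 had nearly the same ratio, and that of replicate 2 was 4.54 times the lowest, a wider spread than that of Angptl4 alone. The ratio is a relative measure, since the genes differ in length.

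**Figure D1:**
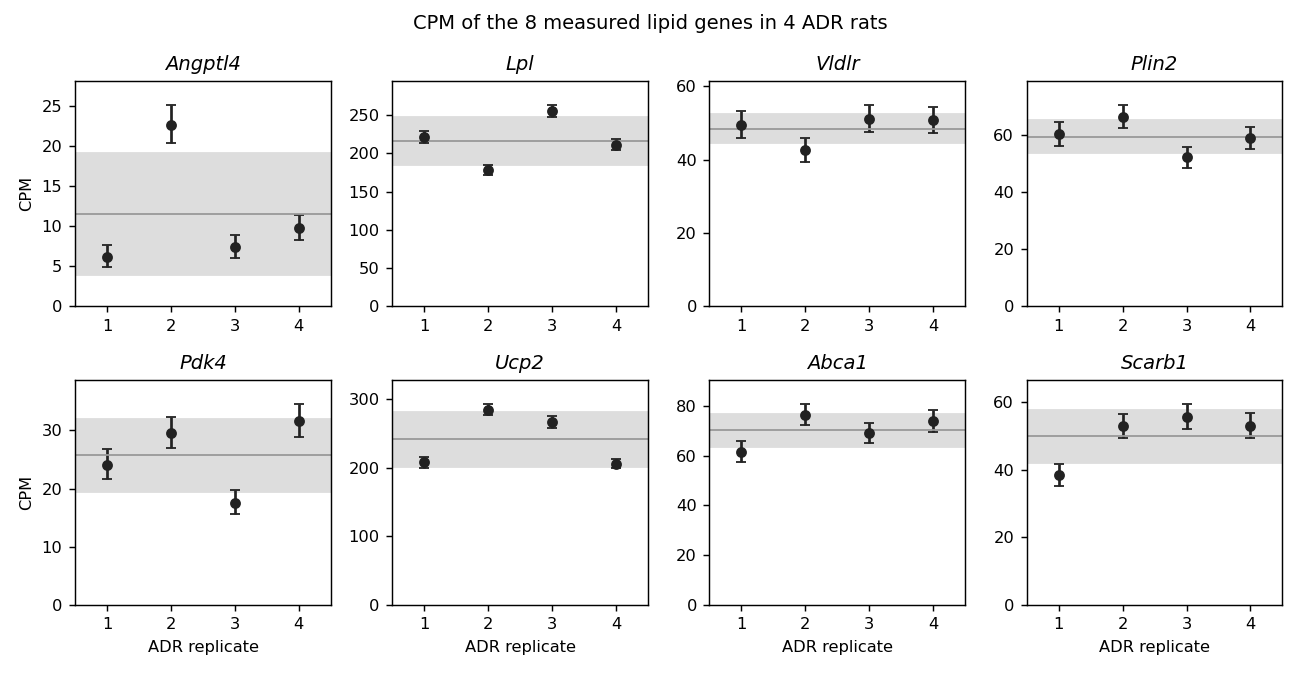
CPM of each of the 8 measured genes (y axis, from 0) in the 4 ADR replicates (x axis). Points carry exact Poisson 95% intervals, the grey line is the mean over 4 rats and the band the mean ± SD; Angptl4 in replicate 2, at 22.6 CPM, lies outside the band, and the lowest Lpl value is in the same rat.

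Vldlr (ENSRNOG00000027491), a receptor for triglyceride-rich lipoproteins, had 49.5, 42.5, 51.1 and 50.7 CPM. Replicates 1, 3 and 4 were close together and replicate 2 was lowest, the same lowest rat as for Lpl. The ratio of highest to lowest, 1.20, was the smallest of the 8 genes. Vldlr and Lpl also had the smallest distance between their patterns of the 28 pairs of members. It was a root mean square difference of 0.10 in log2 CPM after each gene's mean was removed. This distance depends on the spread of both genes as well as on their pattern. Vldlr and Abca1, with SDs of 0.12 and 0.14, lay at 0.20.

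Plin2 (ENSRNOG00000007060), which coats lipid droplets, had 60.4, 66.5, 52.2 and 59.0 CPM, with its highest value in replicate 2 and its lowest in replicate 3. The mean was 59.5 ± 5.86 CPM (SD, n = 4) and the highest value was 1.27 times the lowest. Angptl4 and Plin2 thus shared their highest rat but not the size of the difference: the read ratio of Angptl4 to Plin2 was 0.103, 0.341, 0.141 and 0.165 in replicates 1 to 4.

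Pdk4 (ENSRNOG00000009565) encodes a kinase that switches off pyruvate dehydrogenase and so favours fatty acid use over glucose. It had 24.1, 29.5, 17.6 and 31.6 CPM, a mean of 25.7 ± 6.26 (SD, n = 4). Replicates 2 and 4 were high and replicate 3 was low, a different order from that of Angptl4. Its SD of log2 CPM was 0.38, larger than that of 182 of the 200 genes nearest in mean level. Ucp2 (ENSRNOG00000017854), a carrier of the inner mitochondrial membrane, had 208, 285, 266 and 206 CPM. For this gene replicates 2 and 3 formed the high pair and replicates 1 and 4 the low pair, with a ratio of highest to lowest of 1.38.

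Abca1 (ENSRNOG00000018126), which exports cholesterol to apolipoprotein A-I, had 61.6, 76.6, 69.1 and 73.9 CPM. Its rats fell in the same order as for Angptl4, lowest in replicate 1 and highest in replicate 2, as did those of 3.97% of all genes, but the highest value was only 1.24 times the lowest. Scarb1 (ENSRNOG00000000981), the receptor for high-density lipoprotein, had 38.3, 52.9, 55.7 and 52.9 CPM. Replicate 1 was low and the other 3 rats lay within a ratio of 1.05, on the deposited scale. The ratio of Abca1 to Scarb1 reads ran from 1.24 in replicate 3 to 1.61 in replicate 1.

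**Figure D2:**
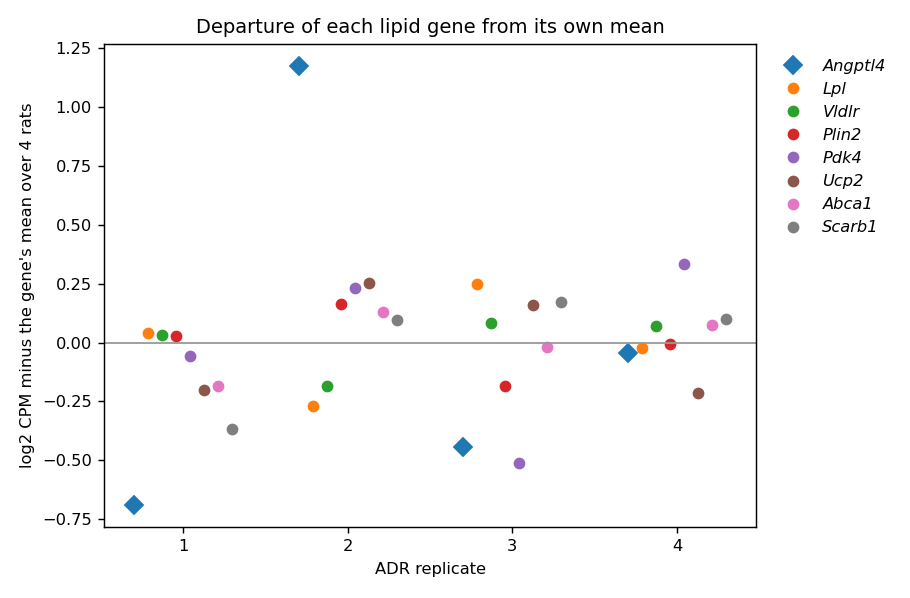
Log2 CPM of each gene minus its own mean over 4 rats (y axis) in the 4 ADR replicates (x axis), with 1 colour per gene and Angptl4 as diamonds. Angptl4 spans from -0.69 in replicate 1 to 1.17 in replicate 2, while the other 7 genes stay between -0.51 and 0.33.

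Across the 8 members, the highest value fell in replicate 2 for 4 genes (Angptl4, Plin2, Ucp2 and Abca1), in replicate 3 for 3 (Lpl, Vldlr and Scarb1), in replicate 4 for Pdk4 and in replicate 1 for 0. The lowest fell in replicate 1 for Angptl4, Abca1 and Scarb1, in replicate 2 for Lpl and Vldlr, in replicate 3 for Plin2 and Pdk4 and in replicate 4 for Ucp2. These assignments were the same with the deposited scaling, with median-of-ratios scaling and with mitochondrial genes left out of the totals. Over all genes, the highest value fell in replicates 1 to 4 for 27.7%, 21.3%, 29.6% and 21.4%, and the lowest for 35.0%, 31.5%, 19.6% and 13.9%. The median SD of log2 CPM of the 7 members other than Angptl4 was 0.21, against 0.18 over all genes.

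The spread of the 7 members other than Angptl4 was then set against counting error. Variation beyond Poisson sampling was found for 7 of 7 (chi-square test, with p-values adjusted over all genes by Benjamini-Hochberg). The same call was made for 69.5% of all genes, and for 82.2% of the 7089 genes with at least as many reads as the member with the fewest, so the count is near that of other genes of like depth. The adjusted p-value was 5.26e-65 for Ucp2 and 3.47e-46 for Lpl, which have the most reads, and 0.00216 for Vldlr (chi-square test, 4 samples, not an exact test). The Vldlr call rested on replicate 2 (adjusted p = 0.839 without it), and those of Abca1 and Scarb1 on replicate 1 (adjusted p = 0.0765 and 0.549 without it). Against genes of like level, limma's trend test called 0 of the 7, as it called 0% of all genes. At an unadjusted p under 0.05, it passed 0 of the 7 members and 725 genes in all (5.47%). Pdk4 came nearest, with an unadjusted limma p of 0.0888 and an adjusted p of 0.940. The smallest adjusted p over all genes was 0.912, which is also the limma value of Zbtb16, whose highest value was 47.8 times its lowest.

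**Figure D3:**
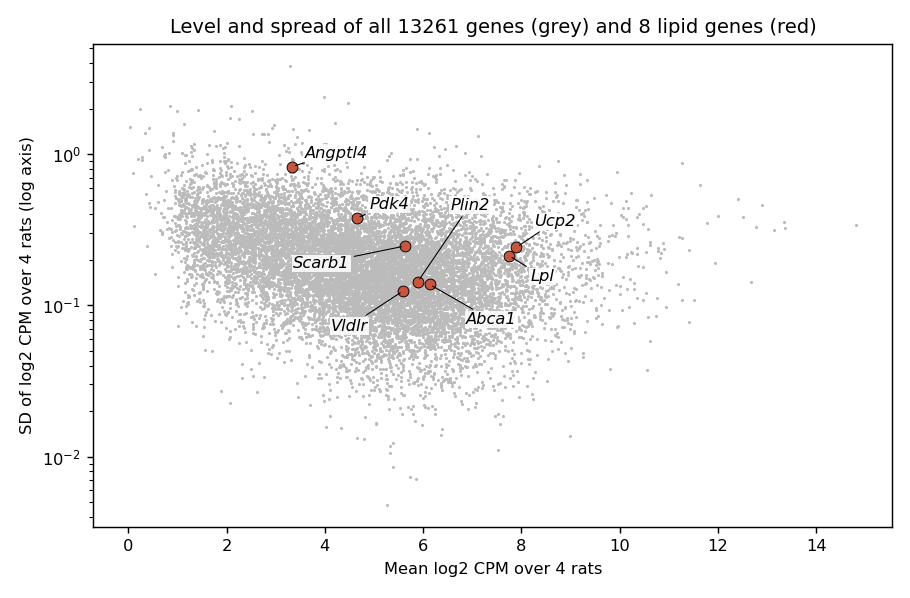
Mean log2 CPM (x axis) and SD of log2 CPM over 4 rats (y axis, log scale) for all 13261 genes (grey) and the 8 lipid genes (red). Angptl4, with an SD of 0.83, lies near the upper edge of the cloud at its level, while Vldlr, Plin2 and Abca1, with SDs of 0.12 to 0.14, lie within it.

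Genes whose pattern over the 4 rats lay nearest to that of Angptl4 were sought among 12758 genes with a value of at least 1 log2 CPM in each rat, by the root mean square difference of mean-centred log2 CPM. A gene with no spread would lie at 0.72, and 16 genes lay within 0.3. The nearest was Ltbp2, a latent TGF-beta binding protein of the matrix, at 0.12, with 143, 493, 177 and 219 reads. Igfbp1, which binds insulin-like growth factors, followed at 0.14 with 151, 819, 245 and 342 reads. Spp1 (osteopontin, an injury-associated matrix protein) lay at 0.20 with 7466, 30562, 11958 and 17379 reads. The others were C4a, Hpgd, Fga, Gnat2 and the long noncoding RNA AC125248.1, at 0.19 to 0.24; C4a has a near-identical copy in rodents, so its reads may be divided. All 8 had the same order of rats as Angptl4, which the choice by distance favours. As a choice made on these 4 samples, the set is a description.

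**Figure D4:**
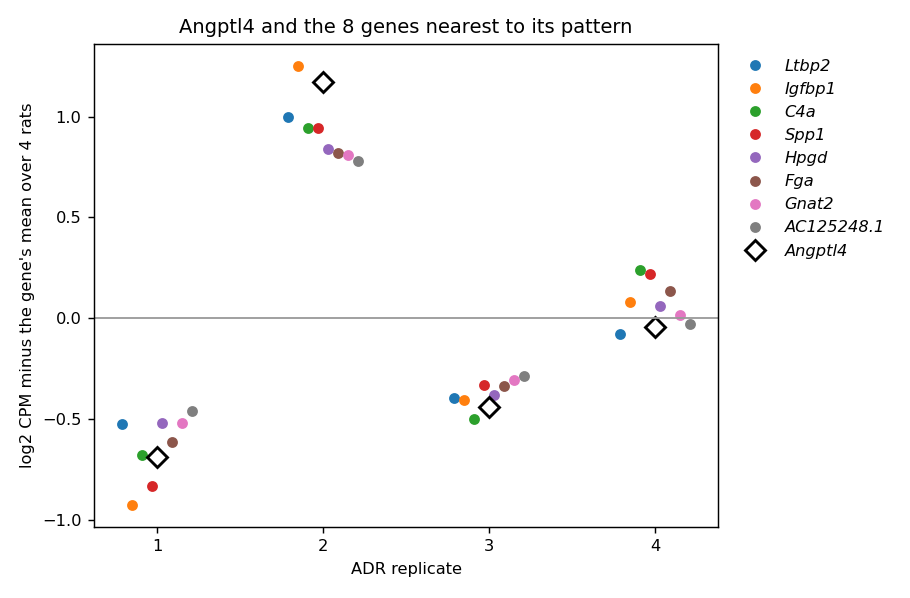
Log2 CPM minus the gene's mean over 4 rats (y axis) in the 4 ADR replicates (x axis) for Angptl4 (open diamonds) and the 8 genes nearest to its pattern (coloured points). All 9 genes are highest in replicate 2 and lowest in replicate 1.

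Relatives of Angptl4 did not share its order. Angptl2, a secreted member of the family linked to inflammation, had 249, 109, 95.4 and 178 CPM, and Angptl7 had 4.94, 1.30, 2.08 and 2.62 CPM. Both were highest in replicate 1, where Angptl4 was lowest, and both varied beyond counting noise, as 69.5% of all genes did. The read ratio of Angptl4 to Angptl2 was 8.36 times higher in replicate 2 than in replicate 1. The other 4 genes of the family list were not analysed here.

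In the intravascular lipolysis list, 10 of 18 genes were measured, and 6 of the 9 besides Angptl4 varied beyond counting noise, a share near the 69.5% of all genes. Sel1l, needed for the folding and exit of the lipase from the endoplasmic reticulum, was lowest in replicate 2 like Lpl, with 249, 189, 224 and 246 CPM. Furin, a protease that cleaves Angptl4, was nearly even, at 234, 224, 218 and 221 CPM. Lipg, which encodes endothelial lipase, had 19 to 25 reads and did not pass (adjusted p = 0.847, chi-square test). Apoc3, an apolipoprotein that inhibits the lipase, had 9.07, 4.13, 3.26 and 5.64 CPM.

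Of 16 measured lipoprotein receptor genes, 15 varied beyond counting noise, against 69.5% of all genes; the exception was Lrp8, at 8.27 to 9.88 CPM. The list's median level was 6.58 log2 CPM, against 4.85 over all genes, and more reads make that call easier. The median SD of the list was 0.30, against 0.18 over all genes. Lrp2 and Cubn, which form the proximal tubule's uptake receptors, had their lowest values in replicate 3, at 751 and 108 CPM, and their highest in replicate 1, at 1923 and 271 CPM. The same replicate held the lowest value of 11 of the 12 proximal tubule markers, a list to which both belong.

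Fatty acid uptake and activation genes numbered 11 measured of 18, and 9 varied beyond counting noise, against 69.5% of all genes and 82.2% of the genes with many reads described above. Slc27a2, a very long-chain fatty acid transporter and acyl-CoA synthetase, had 170, 171, 95.5 and 159 CPM, and Fabp3, a fatty acid binding protein, 36.9, 30.2, 18.4 and 27.5 CPM; both were lowest in replicate 3, as the proximal tubule markers were. Whether tubular RNA took part in these differences was not tested. Acsl5, which activates fatty acids, ranged from 125 to 146 CPM.

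Among 21 measured lipid droplet and triglyceride genes, 17 varied beyond counting noise, against 69.5% of all genes and 82.2% of those with many reads. The highest value fell in replicate 2 for 12 of the 21, as for Plin2, against 21.3% of all genes. With mitochondrial genes left out of the totals the number was 13, against 4079 of the 13261 genes. Lipe (hormone-sensitive lipase) had 679, 1642, 1114 and 1128 reads, with the same lowest and highest rat as Angptl4. Plin3, another coat protein of droplets, was instead lowest in replicate 2, at 55.6 CPM against 64.4 to 69.6 in the others. Mgll, which completes triglyceride breakdown, had 152, 124, 101 and 101 CPM, and Gpat4, an enzyme of glycerolipid synthesis, did not pass (107 to 112 CPM). Of the 11 adipocyte markers, 3 were measured (Pck1, Lipe and Aqp7), genes that are not limited to fat; the defining markers Adipoq, Plin1, Cidec, Lep and Retn were not analysed here, so a contribution of fat tissue to Lpl or Lipe was not tested.

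Pyruvate dehydrogenase and uncoupling genes ran in another order: 11 of 16 were highest in replicate 1 and 12 of 16 lowest in replicate 3, against 27.7% and 19.6% of all genes. With mitochondrial genes left out of the totals, 9 were highest in replicate 1, against 3195 of the 13261 genes, and 12 lowest in replicate 3. Proximal tubule markers had the same extremes, with 10 of 12 highest in replicate 1 and 11 of 12 lowest in replicate 3; their part in these differences was not tested. Pdk2, the kinase isoform related to Pdk4, had 120, 89.3, 64.6 and 80.9 CPM, and Pdp2, the opposing phosphatase, 35.0, 26.6, 17.6 and 19.9 CPM. Pdk4 shared the low value of replicate 3 but not the high value of replicate 1. The ratio of Pdk4 to Pdk2 reads was 0.201, 0.330, 0.272 and 0.391 in replicates 1 to 4. Pdk3 did not pass, at 12.6 to 15.3 CPM.

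In the cholesterol efflux list, 14 of 16 measured genes varied beyond counting noise, against 69.5% of all genes and 82.2% of those with many reads, and 9 had their lowest value in replicate 1, as Abca1 and Scarb1 did; 35.0% of all genes were lowest there. Markers of other cells were often lowest in the same rat, with 9 of 12 macrophage and leukocyte, 7 of 10 glomerular endothelial (5 with median-of-ratios scaling) and 6 of 11 mesangial markers, and their part in the efflux values was not tested. Apoe, which carries cholesterol out of cells, had 534, 465, 337 and 656 CPM, and Abcg1, a second efflux transporter, 52.9, 54.2, 72.7 and 62.1 CPM. Ch25h, which makes an oxysterol, had 6.49, 8.82, 10.8 and 16.7 CPM. Cholesterol synthesis genes set replicate 4 apart: 13 of 22 were highest there, including Hmgcs1 at 90.5 CPM against 47.5 to 57.3 in the others. Over all genes, 21.4% were highest in replicate 4. Abca1 was not among the genes highest in that rat.

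Angptl4 is known to respond to glucocorticoids and to low oxygen as well as to PPARs, so both lists were set beside it. Of 16 glucocorticoid-induced genes, 16 varied beyond counting noise (against 69.5% of all genes and 82.2% of those with many reads), 10 were highest in replicate 2 (21.3% of all genes) and 9 were lowest in replicate 1 (35.0% of all genes). The list's median level was 6.49 log2 CPM, against 4.85 over all genes. Sgk1 and Dusp1, a kinase and a phosphatase with the most reads of the list, had 377, 469, 495 and 448 CPM and 153, 248, 414 and 306 CPM, and were highest in replicate 3. Mt1, a metallothionein, had 6.41, 40.2, 27.2 and 19.8 CPM, and Lcn2, also an injury marker of the kidney, had 12.5, 29.1, 8.08 and 10.0 CPM. Zbtb16 had 9.51, 100, 31.2 and 2.10 CPM and shared the highest rat with Angptl4 but was lowest in replicate 4. Of 16 measured hypoxia-induced genes, 4 were highest in replicate 2 and 4 lowest there, against 21.3% and 31.5% of all genes. Another 4 were lowest in replicate 1, against 35.0% of all genes, and the median SD was 0.18. With mitochondrial genes left out of the totals, 6 were highest in replicate 2, against 4079 of the 13261 genes. Vegfa, an endothelial growth factor that podocytes make, was lowest in replicate 2, at 914 CPM against 1161 to 1297 in the others. Macrophage and leukocyte markers summed to 1116, 1441, 1412 and 1316 CPM in replicates 1 to 4. Of the 12 measured, 9 were lowest in replicate 1, against 35.0% of all genes. The part of glucocorticoids, of low oxygen and of PPARs in the Angptl4 difference was not tested. Nor was that of macrophages and leukocytes, of the mitochondrial share or of the lower podocyte signal.

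**Figure D5:**
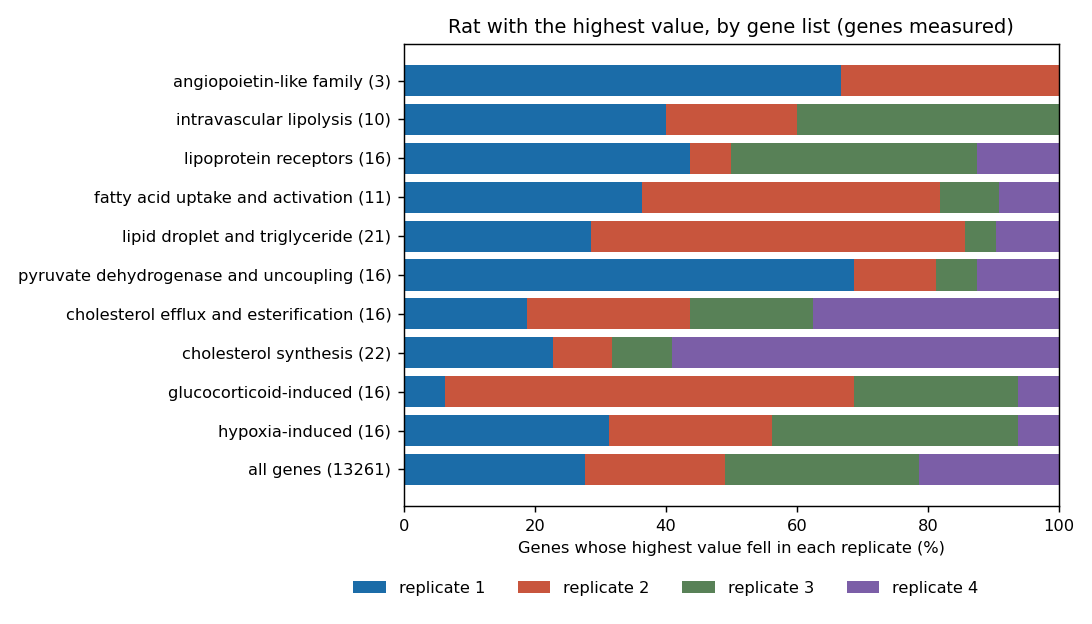
Percent of the genes of each list (rows, number measured in brackets) whose highest value fell in each of the 4 ADR replicates (colours). Replicate 2 takes 12 of 21 lipid droplet genes and 10 of 16 glucocorticoid-induced genes, replicate 4 takes 13 of 22 cholesterol synthesis genes and replicate 1 takes 11 of 16 pyruvate dehydrogenase and uncoupling genes.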

How the data were processed

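Poly(A) RNA from sieved glomeruli of 4 ADR rats was measured by stranded paired-end sequencing, per the labels' protocols. The authors deposited a table of log2 values with a column for each sample. The build Rnor_6.0 and the tools HISAT2, featureCounts, Subread and limma are named, per the submitters' processing notes; their settings are not given in the sources used here. In every column, 2 raised to the deposited log2 value was a whole number of reads plus 0.5, times a constant of that column, for 100% of genes (tolerance 0.01 reads). The values are therefore log2 CPM with 0.5 reads added, and reads were recovered from them. Of 13265 rows, 4 with a number in the biotype cell were left out. No column belonged to no sample.

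Samples were matched to columns by title; replicate numbers follow accession order. The members and gene lists were chosen with earlier results of these data known. A chi-square test (3 degrees of freedom) compared the reads of a gene over samples with Poisson sampling. A limma 3.58.1 fit with only an intercept, on log2(CPM + 1), gave an F test of each gene's variance against the trend with level. P-values were adjusted by Benjamini-Hochberg over all 13261 genes, with a threshold of 0.05. No p-value is given for Angptl4, whose unevenness chose it. The design called for tests that fit log values, with the counting-noise test on recovered reads. Both tests and the recovery of reads were checked on simulated data. There, limma called 33% of genes changed 2-fold in 1 replicate and 100% of those changed 4-fold. The genes simulated for limma were all given the same relative spread, unlike real genes, so these rates do not carry over to the real data.

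Named genes were the members, from each pathway list the 2 genes with the highest mean, the lowest and the 2 with the largest SD, from each marker list the highest, the lowest and the most variable, and the 8 genes nearest to Angptl4; not all are printed, and relatives of a member are named as its family. Alternatives were median-of-ratios scaling, mitochondrial genes left out of the total, another pseudocount (0.25), a filter on low values, a robust prior and leaving out each replicate. Promoter windows come from RefSeq tables of GRCr8. These were searched by letters on both strands. Some genes of these lists are not reported here.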

Additional observations from a re-analysis of the deposited data

Results flagged for a closer look

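Of 84 sets of 4 values examined (named genes on the log2 scale and within-rat ratios), 2 had a single rat set apart from the other 3. The measure was the ratio of the gap to the whole range. Chance would give 4.2 for sets chosen without regard to their values. These sets include Angptl4, its ratios and genes chosen by their spread or by likeness to it, so the count is a description and no test. Scarb1 was set apart by replicate 1, which was low (gap over range 0.861). Slc27a2 was set apart by replicate 3, which was low (gap over range 0.875), with 95.5 CPM against 159 to 171 in the others.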

How the results depend on the processing

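Of 290 recomputed values, 278 stayed within their criterion (1 SD for levels, 1.5 times for numbers, ratios and median SDs, the same side of the threshold for tests). Leaving mitochondrial genes out of the totals raised all genes by 0.14 (log2) at the median, which moved the mean of Vldlr from 5.60 to 5.74 and that of Abca1 from 6.13 to 6.27 log2 CPM. Leaving out each replicate in turn gave ratios of highest to lowest Angptl4 of 1.56 to 3.64, with the lowest without replicate 2. In the same fits the median SD ran from 0.51 to 0.97 for the angiopoietin-like family, from 0.14 to 0.22 for lipid droplet genes, from 0.13 to 0.25 for fatty acid uptake genes, from 0.15 to 0.27 for cholesterol synthesis genes, from 0.28 to 0.67 for proximal tubule markers and from 0.19 to 0.35 for macrophage markers. Fewer rats enter these fits; the cause was otherwise not tested. Genes beyond counting noise numbered 7326 to 8678 without a replicate, and 5 to 7 of the 7 members. Limma's trend test called 0 genes under every alternative run. Of the 8 genes nearest to Angptl4, 7 were kept with distances on log2(CPM + 1) and 7 with the largest single difference. Leaving out 1 of 4 rats cannot move a mean level by 1 SD, and median-of-ratios scaling cannot move a mean over all 4 rats, so the levels under both could not have left their criterion. No paired analysis was possible because there is a single group. Genes of few reads, such as Lipg, are limited by depth.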
